A study of Rattus norvegicus with 26 samples.

Results

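Cholesterol synthesis and transport were described from 34 genes measured in the dentate gyrus of 26 rats. The members were chosen by name, as 18 enzymes of cholesterol synthesis, 5 genes of the control of sterol regulatory element binding proteins (SREBP), 6 receptors or carriers of export and uptake, and 5 genes of movement, storage and turnover. They were also selected on their level, a mean of at least 5 normalized counts over all rats, which 15595 of the 17910 genes in the table met. All 34 met it, from 33.9 for Nr1h3 to 41807 for Apoe, so no member lay near that limit. These means show how many reads stand behind each gene and are not levels per length.

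The rats were male F344 rats aged 6 months. The Veh group (10 rats) received vehicle by gavage, and these rats were part of a study of brain aging. The Dox group (8 rats) received doxorubicin, a chemotherapy agent, at 2 mg per kg by injection once a week for 4 weeks. The Dox + ABT group (8 rats) received the same doxorubicin and ABT-263, an inhibitor of the BCL-2 family that is used as a senolytic, at 12 mg per kg by gavage for 5 days in a row every other week. No group received ABT-263 without doxorubicin, so an effect of ABT-263 on these genes in rats without doxorubicin was not measured. Behavioral testing began 2 weeks after the last Dox dose, so the RNA comes from the time after treatment. Each library came from the dentate gyrus of 1 rat, with neurons, glia and vessels together.

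Cholesterol is made from acetyl-CoA. In the mevalonate part of the pathway small units are joined to squalene, and in the sterol part squalene is closed to lanosterol and trimmed to cholesterol. The brain makes its own cholesterol because lipoproteins of the blood do not cross its barrier, and astrocytes and myelinating oligodendrocytes are main producers. When sterols in the endoplasmic reticulum are low, the escort protein Scap carries SREBP to the Golgi, where it is cut and released to switch on the synthesis genes. When sterols are high, the Insig proteins hold Scap back and oxysterols activate the liver X receptors (LXR), which switch on export genes. Surplus cholesterol leaves neurons as 24-hydroxycholesterol, made by Cyp46a1.

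Depth, estimated from the steps between low values, ran from 1.01e+07 to 2.43e+07 reads. By this rough estimate the median Veh library held 1.67e+07 reads, the median Dox library 1.56e+07 and the median Dox + ABT library 1.51e+07. The 6 granule neuron markers were all measured, with a summed level of 10978 to 20476 normalized counts, so the defining cells of the labelled tissue were present in each library. The libraries fell into 2 kinds along the first principal component of all genes, the first kind with 16 rats (4 Veh, 5 Dox, 7 Dox + ABT) and the second with 10 rats (6 Veh, 3 Dox, 1 Dox + ABT). The share of ribosomal protein genes was 0.625% to 1.14% in rats of the first kind and 1.20% to 1.94% in rats of the second. Within Veh, 8 of the 34 members had ranges that did not overlap between the kinds, against 19.0% of all genes. The second kind was higher for Pmvk, Fdps, Tm7sf2, Msmo1 and Scap and lower for Hmgcs1, Lss and Abca1. Because the kinds are spread unevenly over the groups, values within a kind are given for the members described in full and for some of the others. Rats 1 and 2 of the Dox group, and rats 5 and 7 of the same group, also stood apart from the others in several members. Values without at least 1 of these pairs are given for the members called between Dox and another group and for some others.

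Differences were taken on log2(normalized count + 1) with limma over all 15595 genes, and a gene was called at the study's threshold, an unadjusted p under 0.01. Between Dox and Veh, 3 of the 34 members were called (8.82%), against 2.87% of all genes. All 3 were lower in Dox, where 1.85% of all genes were called lower, and 0 were higher, against 1.02%. They were Cyp51 and Msmo1, 2 enzymes of the sterol part, and the SREBP regulator Insig2. The Cyp51 difference was known when the members were listed, so these counts and shares are a description. Between Dox + ABT and Veh, 2 members were called (5.88%), against 7.84% of all genes. Both, Tm7sf2 and Scap, were lower in Dox + ABT, where 3.95% of all genes were called lower, and 0 were higher, against 3.89%. Between Dox and Dox + ABT, 2 members were called (5.88%), against 4.03% of all genes. Hmgcs1 was lower in Dox, a direction in which 1.71% of all genes were called, and Dhcr7 was higher in Dox, a direction in which 2.32% were called. In all, 7, 7 and 5 members had an unadjusted p under 0.05 in these comparisons, as did 10.2%, 22.5% and 12.7% of all genes, and 0 members passed an adjusted p under 0.05 in any of them by limma. In bulk tissue, fewer cells of a type and less RNA per cell cannot be told apart.

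**Figure D1:**
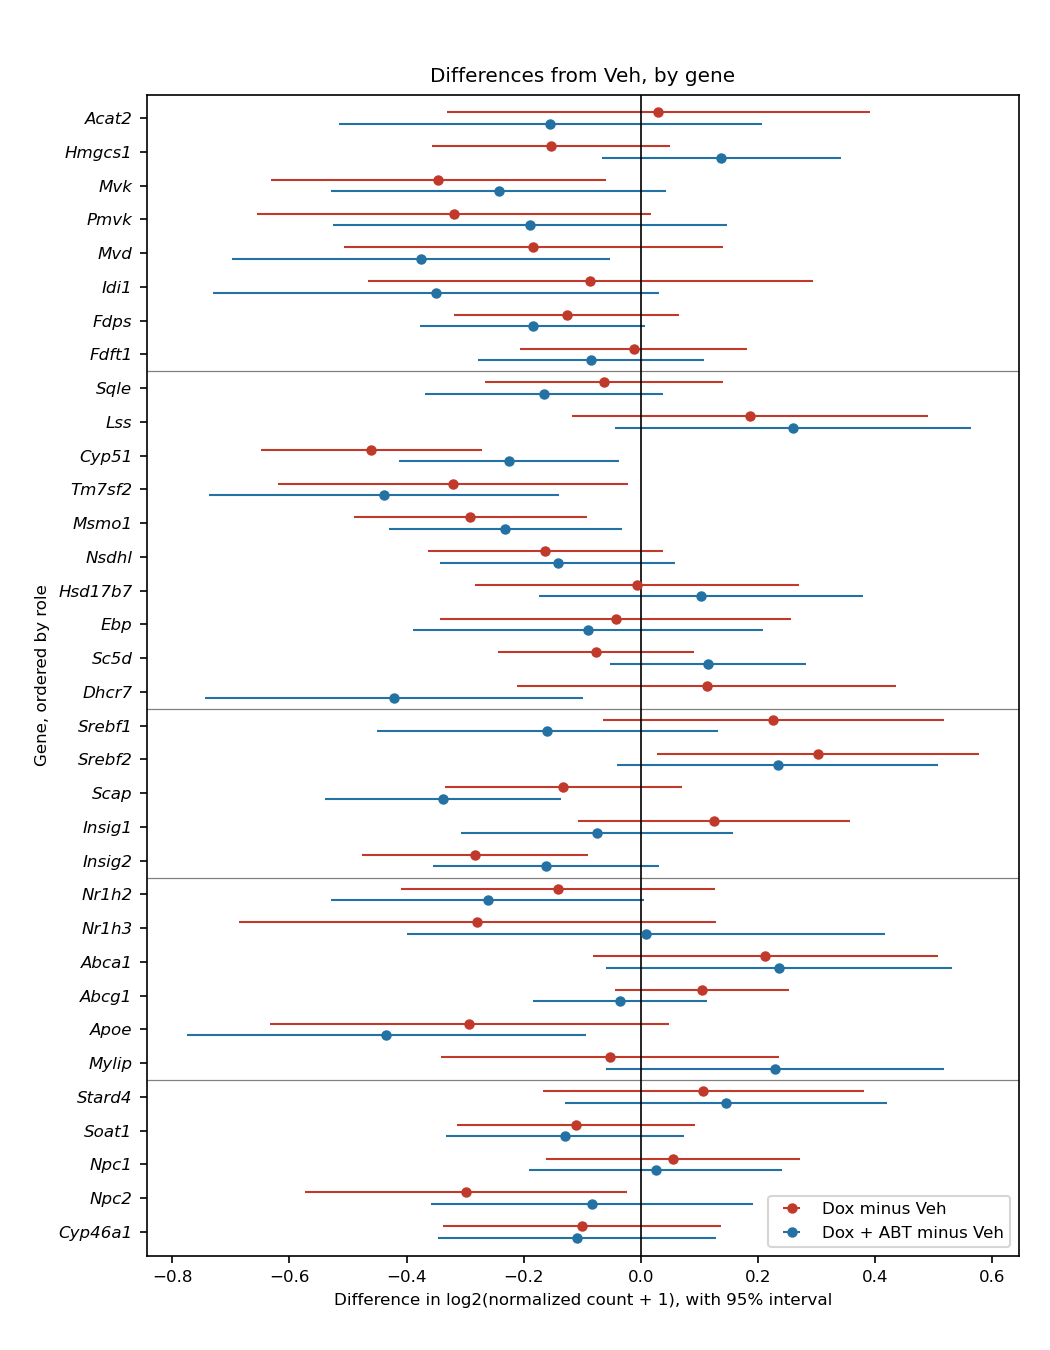
Difference from Veh in log2(normalized count + 1) for each of the 34 genes, with 95% intervals from the limma fit, for Dox (red) and Dox + ABT (blue). Grey lines separate mevalonate part, sterol part, SREBP control, LXR with export and uptake, and movement with storage and turnover. Cyp51 has the lowest Dox value (-0.46), and Tm7sf2 the lowest Dox + ABT value (-0.44).

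As a whole, 15 of the 18 synthesis enzymes were lower in Dox than in Veh, with a median log2 fold change of -0.11 and a range of -0.46 to 0.19. In Dox + ABT, 14 of the 18 were lower than in Veh, with a median of -0.18 and a range of -0.44 to 0.26. Over all genes the medians of these comparisons were close to 0, with 48.9% and 50.1% of genes lower. Both comparisons share the Veh rats. Between Dox and Dox + ABT 9 of the 18 were lower in Dox, with a median of 0.01. The enzymes also differed between the kinds of library: their mean log2 level relative to the Veh mean was -0.11 ± 0.07 (SD, n = 4) in Veh rats of the first kind and 0.08 ± 0.07 (SD, n = 6) in those of the second. Within the first kind the median of the 18 log2 fold changes was -0.13 for Dox and -0.05 for Dox + ABT, both against Veh. Within the second kind it was -0.11 for Dox.

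Rat by rat, the number of the 18 enzymes below their Veh median ran from 4 to 14 (median 9) in Veh, from 4 to 16 (median 12.5) in Dox and from 10 to 15 (median 12) in Dox + ABT. Within the first kind of library the median was 12 in Veh (12 to 14). It was 11 in Dox (10 to 16) and 11 in Dox + ABT (10 to 15). Within the second kind it was 6.5 in Veh (4 to 11) and 14 in Dox (4 to 15). The 1 Dox + ABT rat of that kind had 14. The groups overlapped widely. Dox rat 14 was the exception in its group, with 4 enzymes below the Veh median and a mean log2 level of 0.18 relative to Veh, the highest of all rats. The lowest means belonged to Dox rat 1 (-0.36) and Dox + ABT rat 3 (-0.36).

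**Figure D2:**
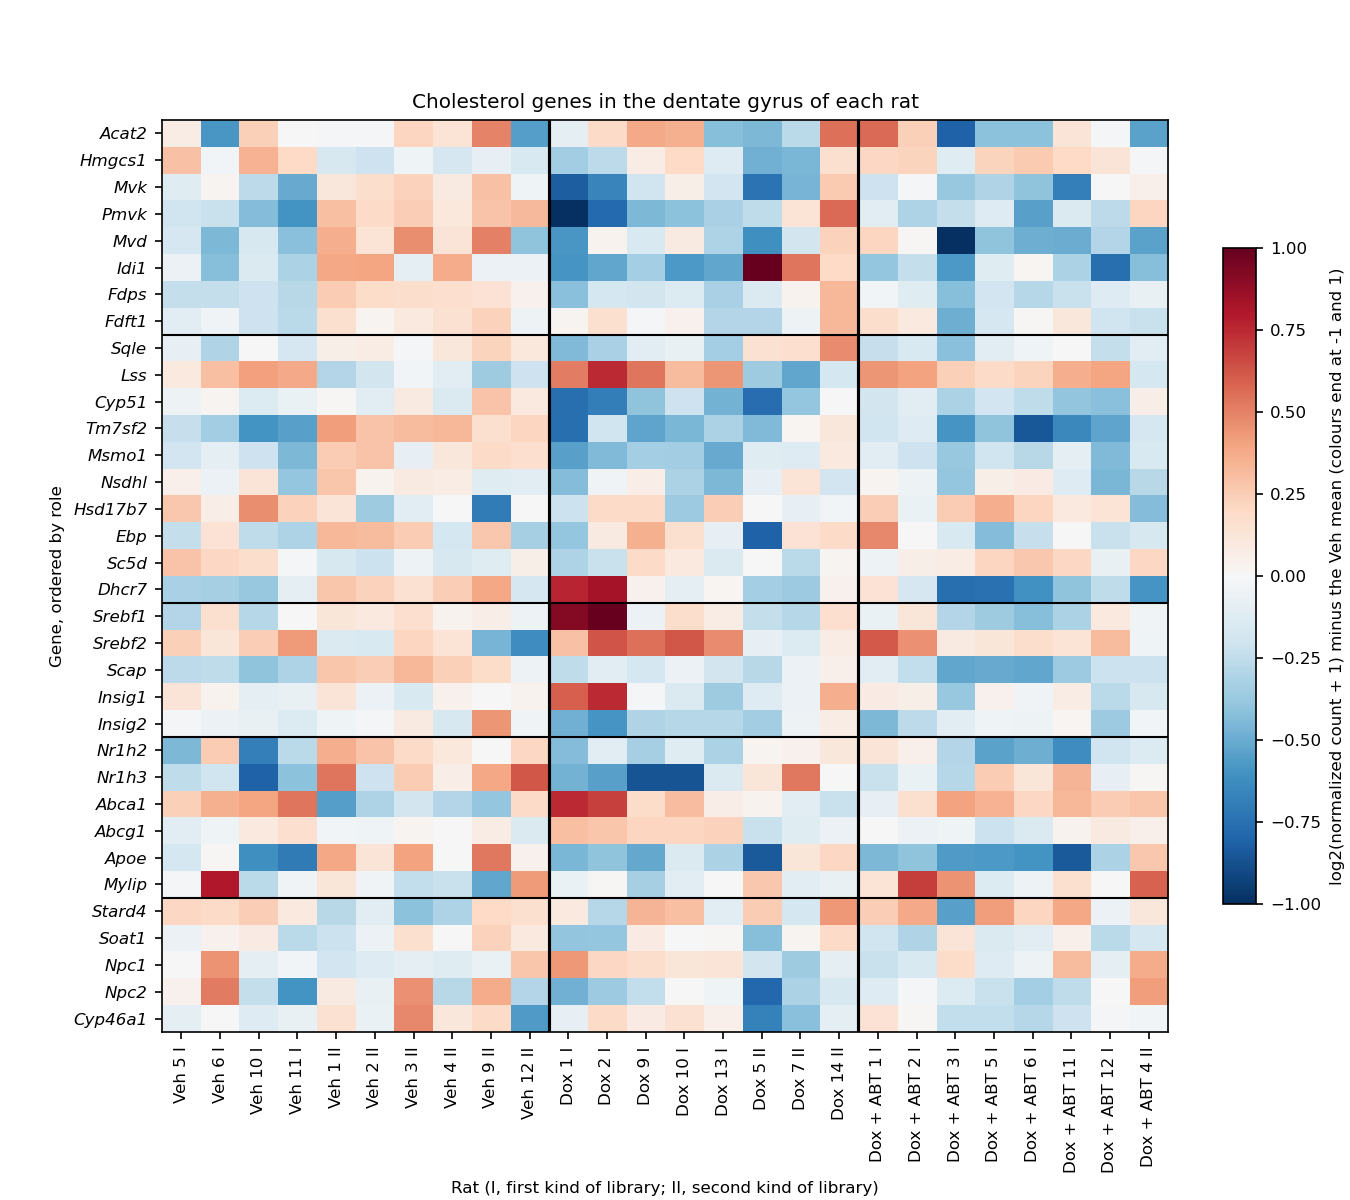
Each cell is the log2(normalized count + 1) of a gene (rows, ordered by role) in a rat (columns, by group and kind of library) minus the mean of the 10 Veh rats, with red above and blue below that mean. Cyp51 is below every Veh rat in 7 of 8 Dox rats, and Dhcr7, Srebf1, Insig1 and Abca1 are red in Dox rats 1 and 2.

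In the sterol part of synthesis, Cyp51 (ENSRNOG00000007234), the lanosterol 14-alpha-demethylase, had the largest difference of any member between Dox and Veh. Its normalized count ran from 1863 to 2508 (median 2028) in Veh, from 1213 to 2053 (median 1518) in Dox and from 1540 to 2160 (median 1765) in Dox + ABT. In 7 of 8 Dox rats it was below every Veh rat, with rat 14 the exception, and in 6 of 8 Dox + ABT rats it was too. The means were 2065 ± 197 (SD, n = 10), 1519 ± 293 (SD, n = 8) and 1770 ± 201 (SD, n = 8). The log2 fold change of Dox against Veh was -0.46 (standard error 0.09), a ratio of 0.727. That difference was known when the members were listed, so it is given as a description. It was -0.45 within the first kind of library, -0.42 within the second and -0.37 without Dox rats 1 and 2. Dox + ABT lay between the other groups, at -0.22 from Veh (limma p = 0.0208, adjusted p = 0.157), while Dox was at -0.24 from Dox + ABT (limma p = 0.0217, adjusted p = 0.308).

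Msmo1 (ENSRNOG00000032297), the methylsterol monooxygenase that takes the product of Cyp51 a few steps further, ran from 1145 to 1908 (median 1585) in Veh, from 1074 to 1672 (median 1230) in Dox and from 1148 to 1469 (median 1355) in Dox + ABT. In 7 of 8 Dox rats and 8 of 8 Dox + ABT rats it was below the Veh median, but the ranges overlapped. The log2 fold change of Dox against Veh came to -0.29 (standard error, SE, 0.10, limma p = 0.0058, adjusted p = 0.306). It was -0.20 within the first kind (p = 0.0417), -0.21 within the second (p = 0.0661) and -0.22 without Dox rats 1 and 2 (p = 0.0411), all in limma. Dox + ABT was at -0.23 from Veh (limma p = 0.0246, adjusted p = 0.167), and at -0.01 within the first kind.

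Tm7sf2 (ENSRNOG00000020989), a sterol C14 reductase that follows Cyp51, ran from 369 to 746 (median 637) in Veh, from 331 to 604 (median 430) in Dox and from 311 to 511 (median 406) in Dox + ABT. In 8 of 8 rats of both treated groups it was below the Veh median. The log2 fold change of Dox + ABT against Veh came to -0.44 (SE 0.15, limma p = 0.0056, adjusted p = 0.115), and that of Dox was -0.32 (limma p = 0.0365, adjusted p = 0.461). Against Veh, Dox stood at -0.02 within the first kind of library (limma p = 0.882) and at -0.39 within the second (limma p = 0.00843). The Veh rats themselves were split, with 369 to 477 in the first kind of library and 626 to 746 in the second. Within the first kind the difference of Dox + ABT from Veh was -0.05 (limma p = 0.727), and with the kind as a covariate -0.19 (limma p = 0.0906).

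Dhcr7 (ENSRNOG00000020776), the 7-dehydrocholesterol reductase of the last step, ran from 478 to 814 (median 638) in Veh, from 484 to 1106 (median 636) in Dox and from 369 to 687 (median 443) in Dox + ABT. It was higher in Dox than in Dox + ABT by 0.53 on the log2 scale (standard error 0.17, limma p = 0.0033, adjusted p = 0.186), and 8 of 8 Dox rats were above the Dox + ABT median. The highest values, 1057 and 1106, were those of Dox rats 1 and 2, and the other Dox rats had at most 642. Without these 2 rats the difference was 0.31 (limma p = 0.0434, adjusted p = 0.411), and within the first kind of library, which holds both, it was 0.71 (limma p = 0.000594, adjusted p = 0.0456). Dox + ABT was at -0.42 from Veh (limma p = 0.0124, adjusted p = 0.135), at -0.12 within the first kind and at -0.43 with the kind as a covariate (limma p = 0.0195). Dox was at 0.11 from Veh over all rats (limma p = 0.482). It passed the threshold in opposite directions within the kinds, at 0.59 in the first (limma p = 0.00746) and -0.41 in the second (limma p = 0.00996), a contrast between kinds that was not tested.

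The other sterol enzymes did not pass the threshold in any comparison. Sqle, the squalene epoxidase, differed between Dox and Veh by -0.06 on the log2 scale, Nsdhl by -0.16, Hsd17b7 by -0.01, Ebp by -0.04 and Sc5d by -0.08. Lss, the lanosterol synthase just before Cyp51, stood at 0.19 in Dox and 0.26 in Dox + ABT relative to Veh. Adjusted for the kind of library these values were 0.05 and -0.04, and the sign for Dox + ABT turned. Its Dox values ran from 662 to 1594, with the 3 rats of the second kind at 662 to 844 and the 5 of the first kind at 1187 to 1594, and the kinds did not overlap. Of the 10 enzymes in this part, 8 were lower in Dox than in Veh.

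**Figure D3:**
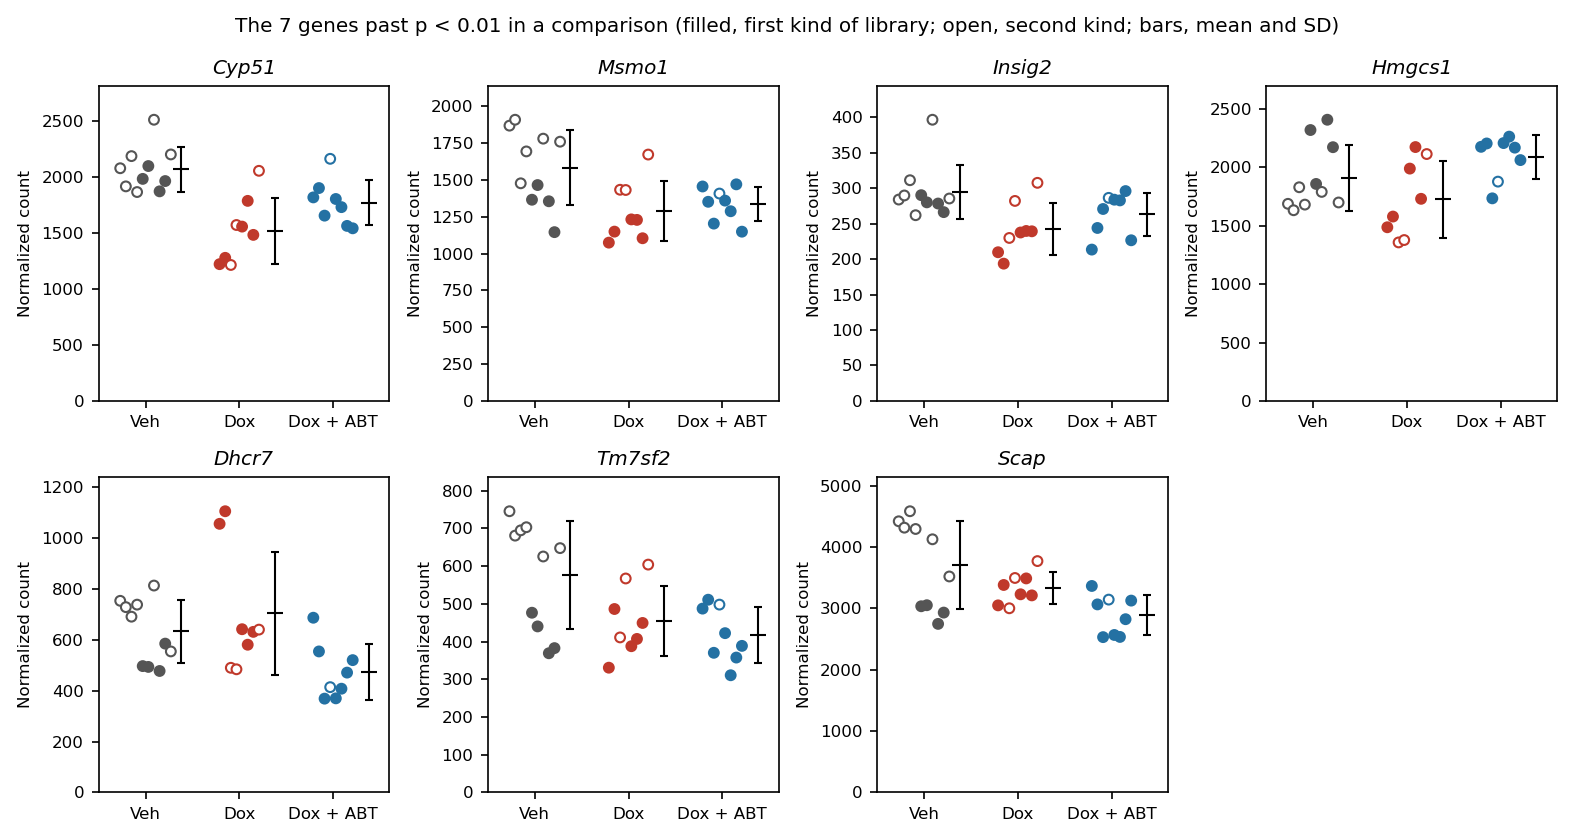
Normalized counts per rat of the 7 genes called in a comparison, by group, each axis starting at 0. Points are rats, filled for the first kind of library and open for the second, and the bars show mean and SD. Cyp51 is below all Veh rats in 7 of 8 Dox rats, whereas Tm7sf2 and Scap split the Veh rats by kind of library.

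The stretch before the start of 3 of the called enzymes is shown because SREBP acts there together with the CCAAT-binding factor NF-Y, and these enzymes differ in the motif. The sequences are those of RefSeq on GRCr8, 250 bases that end just before the annotated gene start, 5′ to 3′ on the gene's strand, with each CCAAT, or ATTGG for the other strand, in capitals. Cyp51 lies at chr4:30991443-30991692, Msmo1 at chr16:29746863-29747112 and Hmgcs1 at chr2:53382054-53382303, all on the plus strand.
Cyp51: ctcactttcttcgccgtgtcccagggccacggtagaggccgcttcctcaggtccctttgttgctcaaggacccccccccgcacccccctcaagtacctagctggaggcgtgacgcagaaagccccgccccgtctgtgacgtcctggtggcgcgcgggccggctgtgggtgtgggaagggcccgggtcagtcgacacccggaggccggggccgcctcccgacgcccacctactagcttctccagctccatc
Msmo1: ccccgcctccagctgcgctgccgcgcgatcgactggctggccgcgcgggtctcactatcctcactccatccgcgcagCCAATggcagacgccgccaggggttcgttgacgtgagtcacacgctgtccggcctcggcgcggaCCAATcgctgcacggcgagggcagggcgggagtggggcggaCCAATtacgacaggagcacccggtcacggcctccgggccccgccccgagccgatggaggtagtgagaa
Hmgcs1: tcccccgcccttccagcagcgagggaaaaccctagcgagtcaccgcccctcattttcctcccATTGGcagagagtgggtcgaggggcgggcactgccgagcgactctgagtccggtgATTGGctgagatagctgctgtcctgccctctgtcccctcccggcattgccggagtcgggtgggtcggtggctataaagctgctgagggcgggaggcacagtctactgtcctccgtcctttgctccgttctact
CCAAT begins 173, 109 and 68 bases before the start in Msmo1. In Hmgcs1 it is on the other strand, as ATTGG beginning 188 and 133 bases before the start, and the Cyp51 window holds neither form.

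Windows were at hand for 29 of the 34 members, 15 of them synthesis enzymes. CCAAT on either strand was found for 12 of these 15 enzymes, all but Acat2, Cyp51 and Dhcr7, and for 9 of 14 other members, against 34.02% of the 33469 windows in the table. The sterol regulatory element TCACNCCAC was found in 0 of the members' windows and 0.974% of all windows. The E-box CACGTG was found for Sc5d, Insig1, Scap and Abca1 and in 5.59% of all windows. The LXR repeat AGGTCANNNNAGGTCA was found in 0 members and 1 window of the table. Both strands were searched for each motif, none of which contains another, and a gene with several windows was counted once. A match describes letters, not binding.

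In the mevalonate part, Hmgcs1 (ENSRNOG00000016552), the HMG-CoA synthase, ran from 1633 to 2409 (median 1810) in Veh, from 1358 to 2175 (median 1655) in Dox and from 1735 to 2264 (median 2173) in Dox + ABT. Its values in Dox were low in rats 5, 7, 1 and 2, at 1358, 1378, 1488 and 1579, all below every Veh rat, and the remaining 4 lay within the Veh range. Dox was lower than Dox + ABT by a log2 fold change of -0.29 (standard error 0.10, limma p = 0.00965, adjusted p = 0.246), and 5 of 8 Dox rats were below every Dox + ABT rat. The difference was -0.25 within the first kind (limma p = 0.0189), -0.24 without Dox rats 1 and 2 (limma p = 0.044) and -0.19 without rats 5 and 7 (limma p = 0.0819). Against Veh, Dox stood at -0.15 and Dox + ABT at 0.14. Adjusting for the kind of library gave -0.21 (limma p = 0.0215) and 0.02.

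Mvk, the mevalonate kinase, had the smallest p of this part between Dox and Veh. It ran from 132 to 230 (median 196) in Veh, from 105 to 225 (median 149) in Dox and from 116 to 194 (median 158) in Dox + ABT. Dox was at -0.35 from Veh (standard error 0.14, limma p = 0.0197, adjusted p = 0.417), with 7 of 8 Dox rats below the Veh median, at -0.15 within the first kind and -0.46 within the second. It did not pass the threshold. The next kinase, Pmvk, was at -0.32 and the decarboxylase Mvd at -0.18 in Dox relative to Veh. Among rats of the first kind Pmvk was at -0.24 and Mvd at 0.12, the opposite direction, and among those of the second they were at -0.09 and -0.39. Dox + ABT was at -0.38 from Veh in Mvd (limma p = 0.0242, adjusted p = 0.166), at -0.05 within the first kind and at -0.28 with the kind as a covariate (limma p = 0.101). Fdps, the farnesyl diphosphate synthase, was at -0.13 in Dox and -0.18 in Dox + ABT, with 7 of 8 and 8 of 8 rats below the Veh median. Adjusted for the kind of library, by which the Veh rats split in this gene, the values were -0.05 and -0.03. Fdft1, the squalene synthase, was at -0.01 and -0.09, and Acat2, which joins the first units, at 0.03 and -0.15.

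Idi1, the isopentenyl diphosphate isomerase, was the most uneven of these genes in the Dox group. Its values in Dox ran from 284 to 931 (median 317), against 317 to 561 (median 410) in Veh and 252 to 433 (median 334) in Dox + ABT. Dox rats 5 and 7, at 931 and 619, were above all other rats, and rat 14 of the same kind of library had 490. The Dox rats of the first kind had 284 to 336. The log2 fold change against Veh was -0.09 over all rats, -0.39 without rats 5 and 7 (limma p = 0.00907, adjusted p = 0.133), -0.27 within the first kind (limma p = 0.057) and 0.46 within the second (limma p = 0.0326).

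Among the genes that control SREBP, Insig2 (ENSRNOG00000002478), which retains Scap in the endoplasmic reticulum, ran from 262 to 397 (median 285) in Veh, from 194 to 308 (median 238) in Dox and from 213 to 296 (median 277) in Dox + ABT. In 6 of 8 Dox rats it was below every Veh rat, all but rats 7 and 14. The log2 fold change of Dox against Veh came to -0.28 (SE 0.09, limma p = 0.00546, adjusted p = 0.299), and that of Dox + ABT -0.16 (limma p = 0.0968, adjusted p = 0.305). Within the first kind of library it was -0.32 for Dox (limma p = 0.0116), within the second -0.16 (p = 0.313), and without Dox rats 1 and 2, the lowest of the Dox group, -0.20 (limma p = 0.0479).

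Scap (ENSRNOG00000020853), the SREBP escort, ran from 2747 to 4583 (median 3823) in Veh, from 3001 to 3771 (median 3305) in Dox and from 2531 to 3365 (median 2944) in Dox + ABT. All 8 Dox + ABT rats were below the Veh median, and 3 were below every Veh rat. The log2 fold change of Dox + ABT against Veh came to -0.34 (SE 0.10, limma p = 0.00189, adjusted p = 0.109). Like Tm7sf2, Scap divided the Veh rats by kind, with 2747 to 3051 in the first and 3520 to 4583 in the second. The difference of Dox + ABT from Veh was -0.05 within the first kind (limma p = 0.575) and -0.20 with the kind as a covariate (limma p = 0.0248). The part of the kind of library in the result was not tested further, and 7 of the 8 Dox + ABT rats are of the first kind.

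The SREBP genes themselves did not pass the threshold. Srebf2, which mainly serves the cholesterol genes, was at 0.30 in Dox (limma p = 0.0317, adjusted p = 0.452) and 0.23 in Dox + ABT relative to Veh, opposite in sign to most enzymes, with 4 of 8 Dox rats, all of the first kind, above every Veh rat. With the kind adjusted for, these values were 0.20 and 0.02. Srebf1, which mainly serves the fatty acid genes, was at 0.23 in Dox and -0.16 in Dox + ABT. Set against Dox + ABT, Dox stood 0.39 higher (limma p = 0.0154, adjusted p = 0.278), and 0.13 without Dox rats 1 and 2. It was 0.61 within the first kind of library (limma p = 0.00203) and 0.55 without Dox rats 5 and 7 (limma p = 0.000776), and Srebf1 passed the threshold there. Relative to Veh, Srebf1 in Dox was at 0.54 within the first kind and -0.19 within the second. Insig1, itself a target of SREBP, was at 0.13 in Dox relative to Veh, and at -0.06 without Dox rats 1 and 2.

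For the LXR receptors, export and uptake, 0 of 6 genes were called in any comparison, where 2.87%, 7.84% and 4.03% of all genes were, so few calls would be seen among 6 genes. At an unadjusted limma p under 0.05 there was 1, Apoe in Dox + ABT against Veh, where 22.5% of all genes were, and 0 in the other comparisons, against 10.2% and 12.7%. Apoe, the main lipoprotein of the brain and made largely by astrocytes, had the smallest p between Dox and Veh. It ran from 28809 to 67655 (median 48015) in Veh, from 26207 to 54235 (median 36711) in Dox and from 26320 to 56662 (median 33148) in Dox + ABT. Dox was at -0.29 from Veh (standard error 0.17, limma p = 0.0898, adjusted p = 0.55), and Dox + ABT at -0.43 (limma p = 0.0144, adjusted p = 0.139). Within the first kind of library these became 0.01 and -0.16. Within the second kind the Apoe median was 56470 in Veh (46849 to 67655) and 51226 in Dox (26207 to 54235). Abca1 and Abcg1, transporters that load cholesterol on lipoproteins, were at 0.21 and 0.10 in Dox and at 0.24 and -0.04 in Dox + ABT. For Abca1 the value in Dox was 0.02 within the first kind, and that in Dox + ABT was 0.01 with kind adjusted for. Abcg1 was above every Veh rat in 5 of 8 Dox rats, all 5 of the first kind, in which the difference from Dox + ABT was 0.30 (limma p = 0.000393, adjusted p = 0.0436). Over all rats that difference was 0.14 (limma p = 0.0779, adjusted p = 0.448). The receptors Nr1h2 (LXR beta) and Nr1h3 (LXR alpha) were at -0.14 and -0.28 in Dox. Set against Dox + ABT, Nr1h3 in Dox was at -0.58 within the first kind (limma p = 0.00761), against -0.29 over all rats (limma p = 0.181). Mylip, which marks the low density lipoprotein receptor for decay, was at -0.05 in Dox and 0.23 in Dox + ABT.

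For movement, storage and turnover, 0 of 5 genes were called, beside the same shares of all genes. Npc2, the lysosomal carrier that hands cholesterol to Npc1, had the smallest p between Dox and Veh. It ran from 831 to 1806 (median 1246) in Veh, from 732 to 1261 (median 1038) in Dox and from 995 to 1682 (median 1149) in Dox + ABT. Dox was at -0.30 from Veh (standard error 0.13, limma p = 0.0344, adjusted p = 0.459), with -0.16 within the first kind and -0.46 within the second. Npc1 was at 0.06 and 0.03 in the treated groups, Soat1, which makes cholesterol esters, at -0.11 and -0.13, and Stard4, a sterol carrier of the cytosol, at 0.11 and 0.15. Cyp46a1, the neuronal 24-hydroxylase, was at -0.10 in Dox, with a 95% interval of -0.34 to 0.14, and at -0.11 in Dox + ABT, with an interval of -0.35 to 0.13. In Dox it was at 0.15 within the first kind and -0.45 within the second.

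Dox rats 1 and 2 were together above all 24 other rats in 5 members, Dhcr7, Srebf1, Insig1, Abca1 and Abcg1, and below all of them in 2, Pmvk and Insig2. Of all pairs of rats within a group they stood apart most often, in 7 members, and no other pair did so in more than 3. Srebf1 was at 2729 and 3003 in these rats and at 1075 to 1633 in all others. Insig1 was at 1250 and 1385, with 634 to 1064 in the others. Dox rats 5 and 7, both of the second kind of library, were above all other rats in Idi1 and below them in Hmgcs1 and Lss. These pairs were singled out after their values were seen. The share of all genes in which they stand apart was not counted. Whether the counts are particular to these members was therefore not tested. Without rats 1 and 2, 1 member was called between Dox and Veh (Cyp51), against 1.16% of all genes, and 0 between Dox and Dox + ABT, against 2.97%. Without rats 5 and 7, 8 were called between Dox and Veh, against 7.25% of all genes. Cyp51, Msmo1, Insig2 and Idi1 were lower in Dox, and Srebf1, Srebf2, Abcg1 and Lss higher. This fit keeps only rat 14 of the Dox rats of the second kind, beside 6 Veh rats of that kind. The part of the kind of library in these calls was not tested. In the same fit 3 were called between Dox and Dox + ABT (Abcg1, Srebf1 and Dhcr7, all higher in Dox), against 5.98% of all genes.

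**Figure D4:**
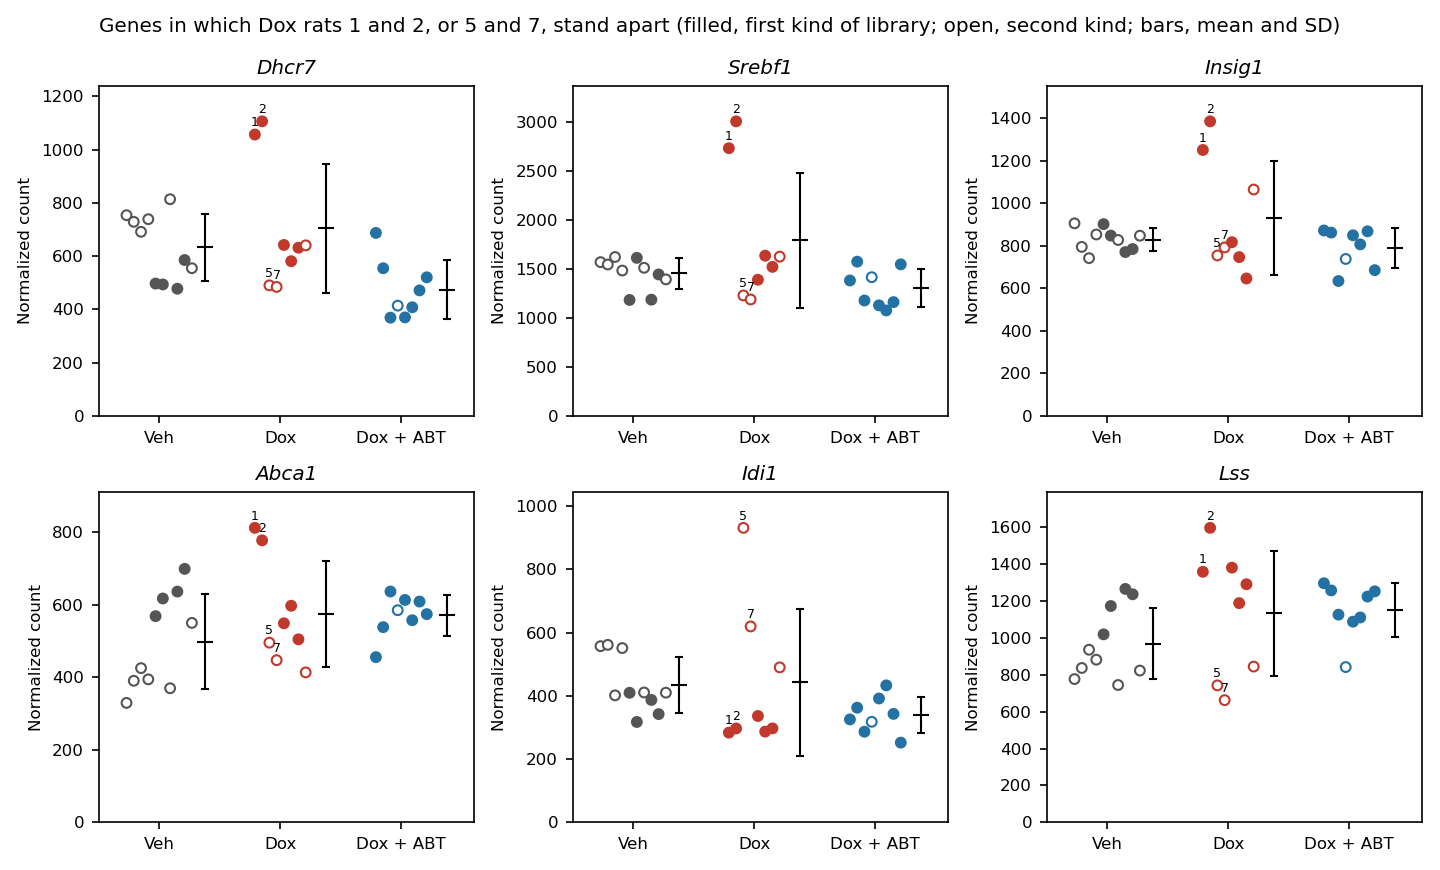
Normalized counts per rat, by group, of 6 genes in which pairs of Dox rats stand apart, with rats 1, 2, 5 and 7 of the Dox group numbered. Points are filled for the first kind of library and open for the second, and the bars show mean and SD. Rats 1 and 2 lie above all other rats in Dhcr7, Srebf1, Insig1 and Abca1, and rats 5 and 7 do so in Idi1.

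Of 59 further genes of the pathway, 56 were measured at the required level. The genes were listed by function, with earlier results of these data known, so the shares are a description. Between Dox and Veh 6 were called (10.7%, against 2.87% of all genes), all lower in Dox, and 4 of them belong to the 10 measured fatty acid targets of SREBP-1. These were Fads1 (-0.37, limma p = 0.000297), Fads2 (-0.49, p = 0.00336), Elovl5 (-0.31, p = 0.0067) and Scd (-0.29, p = 0.00975), desaturases and an elongase of fatty acids. The others were Apod (-0.70, limma p = 0.000467), a lipid carrier of glia, and the oxysterol 7-alpha-hydroxylase Cyp7b1 (-0.31, p = 0.00576). Their adjusted p ran from 0.114 to 0.342. Without Dox rats 1 and 2, Cyp7b1 was at -0.17 (limma p = 0.0771), Elovl5 at -0.28 (p = 0.0215) and Fads2 at -0.39 (p = 0.0266), and these 3 were no longer called. Without Dox rats 5 and 7, Scd was at -0.18 (limma p = 0.0881), Elovl5 at -0.21 (p = 0.0555) and Fads2 at -0.46 (p = 0.011). Those genes were not called in that fit, whereas Fads1, Apod and Cyp7b1 were. Fads1 had 3154 to 4811 (median 4029) in Veh and 2477 to 3738 (median 3000) in Dox, and its difference was -0.19 within the first kind and -0.50 within the second. Fads2 was at -0.23 and -0.56, Scd at -0.12 and -0.54, and Elovl5 at -0.42 and -0.31. Apod was at -0.49 and -0.79, and Cyp7b1 at -0.34 and -0.14. Of these 6 genes only Elovl5 and Cyp7b1 were called within the first kind, and only Fads1, Scd and Apod within the second. Between Dox + ABT and Veh 6 of the 56 were called, against 7.84% of all genes. Fads2 (-0.65), Por (-0.34), which feeds electrons to Cyp51 and other P450 enzymes, and Mid1ip1 (-0.21) were called lower. Pggt1b (0.42), Lrp8 (0.44), an Apoe receptor, and Osbp (0.31) were called higher. Within the first kind alone these 6 differences were -0.34, -0.10, -0.18, 0.21, 0.13 and 0.07. Between Dox and Dox + ABT 3 were called, against 4.03% of all genes. Apod (-0.67) was called lower in Dox, and Tspo (0.72), a sterol-binding protein of mitochondria, and Ch25h (1.30), the 25-hydroxylase, higher. Ch25h was at 155 and 171 in Dox rats 1 and 2 and at 14.6 to 45.3 in the other Dox rats, and without the former the difference was 0.66 (limma p = 0.113). Without them Apod was at -0.50 (limma p = 0.0138) and Tspo at 0.65 (limma p = 0.0116), so that none of the 3 passed. The remaining lists, other synthesis enzymes, the isoprenoid branch and SREBP processing, held 0 called genes between Dox and Veh.

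Markers of other cell types were measured in the same comparisons, where 2.87% of all genes were called between Dox and Veh and 7.84% between Dox + ABT and Veh. The 10 oligodendrocyte markers had a median log2 fold change of -0.24 between Dox and Veh and a summed level of 44433 to 123168 in Veh and 48209 to 72971 in Dox. Of 10 astrocyte markers 3, Gfap, Aqp4 and Aldh1l1, were called lower in Dox than in Veh, and 5 of the 10 were lower in all, with a median of -0.03 and a summed level of 66085 to 104087 in Veh and 60711 to 76841 in Dox. Of 8 microglia markers 4 were called lower, with a median of -0.43 and sums of 3517 to 6105 in Veh and 3046 to 4966 in Dox. Of 6 oligodendrocyte precursor markers 1, Enpp6, was called lower. In Dox + ABT the oligodendrocyte sum was 51637 to 108396 and its median log2 fold change from Veh 0.02, the astrocyte sum was 65508 to 92379 with -0.24, and the microglia sum was 3127 to 5302 with -0.31. Against Veh, 1 astrocyte marker (Aldh1l1), 2 microglia markers (Trem2 and Csf1r) and 2 precursor markers (Bmp4 and Cspg4) were called lower in Dox + ABT. Of 6 granule neuron markers 0 were called between Dox and Veh and 2 were called lower in Dox + ABT than in Veh. Of 4 measured endothelial markers 1, Vwf, was called higher in Dox than in Veh. Of 6 choroid plexus markers 3 were below the required level, and the others summed to 14.6 to 357 over all rats, with 0 called. Between Dox and Dox + ABT, 8 of 10 oligodendrocyte markers were lower in Dox, with a median of -0.27. In that comparison Aqp4 and Enpp6 were called lower in Dox, and Rbfox3, Neurod1 and Vwf higher. The part of these cell types in the lower Cyp51, Msmo1 and Insig2 in Dox, in the lower Tm7sf2 and Scap in Dox + ABT, or in the differences between Dox and Dox + ABT, was not tested.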

How the data were processed

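RNA from the dentate gyrus of one hemisphere was selected for poly(A), made into libraries with an Ion Total RNA-Seq kit and sequenced on an Ion Proton. Reads were aligned to rn6 with STAR 2.5.3a and counted in Partek, as named in the submitters' processing notes and the study's methods. The authors deposited normalized signal, the counts of each row divided by a Median Ratio size factor, so the values are not whole. DESeq2 is named as the authors' tool. A deposited table of sample labels holds no measurements and was read only to learn that V in the column names stands for Vehicle. Of the 24012 rows, those with the same gene ID were summed to 17910 genes, and 15595 genes with a mean of at least 5 were tested. Of the members, 23 had 1 row and 11 had 2 or 3, and the rows carry no transcript names. Depth was estimated from the smallest step of low values, of which 75.4% to 80.1% were whole multiples within a tolerance of 0.02, too few to recover reads. No 2 libraries held identical values.

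Values were analysed as log2(value + 1) with limma 3.58.1 in R 4.3.3 (linear model over all 26 rats, moderated variances with a trend), and p-values were adjusted by Benjamini-Hochberg over all genes. Fold changes are on this scale, which understates those of low genes. The script was tested on simulated data. Figures were drawn with matplotlib 3.10.9 in Python 3.11.15. The kind of library was set from the first principal component of deviations from group means. It is a description of these values, and no label names it. Full statistics are given for each member called at p under 0.01 and for the member with the smallest p between Dox and Veh in each role group. Alternatives changed the pseudocount, filter, variance model, weights, scaling, rows, samples, kind of library and replicate number. Fits without Dox rats 1 and 2, without Dox rats 5 and 7 and within the second kind of library were chosen after seeing the data. The members and lists were chosen with earlier results of these data known. The single oligodendrocyte markers are not reported here.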

Additional observations from a re-analysis of the deposited data

Results flagged for a closer look

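Of 102 groups of rats examined for the 34 genes, 6 had a rat far from the rest, and about 1 in 20 would by chance. In the Dox + ABT group, rat 4 was lowest in Lss, at 841 normalized counts with the next rat at 1087. The same rat was highest in Apoe, at 56662 with the next at 37783, and highest in Npc2, at 1682 with the next at 1264. It was the 1 rat of its group with the second kind of library. In the Veh group, rat 9 was highest in Cyp51, at 2508 with the next at 2199, and highest in Insig2, at 397 with the next at 311. In the Dox + ABT group, rat 1 was highest in Ebp, at 213 with the next at 153.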

How the results depend on the processing

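For Dox against Veh, where 3 members were called, 14 were called with library weights from limma's arrayWeights (20.2% of all genes were then called), 1 without Dox rats 1 and 2 (1.16%), and 8 without Dox rats 5 and 7 (7.25%). Within the first kind 2 were called (Cyp51 and Dhcr7, 4.76% of all genes) and within the second 2 (Dhcr7 and Tm7sf2, 3.57%), so Msmo1 and Insig2 were called in neither. Leaving out 1 rat at a time gave 1 to 5, with 1 without Veh rat 9, Dox rat 1 or Dox rat 2 (2.21%, 1.71% and 1.74% of all genes), and 5 without Veh rat 11 or Dox rat 14 (4.53% and 4.17%). For Dox + ABT against Veh, where 2 were called, 16 were called with library weights (33.97% of all genes). With the 2 compared groups alone 4 were called (8.14%). With transcript rows 4 were called, a gene being counted if any of its rows passed, beside 6.39% of single rows. With kind as a covariate or only rats of the first kind 0 were called (1.37% and 1.10% of all genes). Leaving out 1 rat gave 1 to 5, the highest without Veh rat 10 (11.9% of all genes). The median log2 fold change of the 18 enzymes was -0.047 within the first kind, against -0.18. For Dox against Dox + ABT, where 2 were called, 5 were called with library weights (10.3% of all genes), 4 within the first kind (8.21%), 1 without a variance trend, with the 2 compared groups alone or with trimmed-mean rescaling (3.82%, 4.51% and 4.07%), and 0 without Dox rats 1 and 2 (2.97%). Leaving out 1 rat gave 0 to 3, with 0 without Dox rat 1 or Dox rat 2. The call of Hmgcs1, near the threshold, was lost in 26 of its 42 alternatives, that of Msmo1 in 14 of 43 and that of Tm7sf2 in 11 of 42. Apoe between Dox and Veh reversed to 0.0058 within the first kind. The medians of the enzymes without 1 rat ran from -0.15 to -0.06 for Dox against Veh, from -0.21 to -0.14 for Dox + ABT against Veh and from -0.03 to 0.04 for Dox against Dox + ABT. The cause of these changes was not tested.

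With the replicate number of the labels as a block, 7 members were called for Dox against Veh (4.91% of all genes), 3 for Dox + ABT against Veh (7.57%) and 4 for Dox against Dox + ABT (2.58%). The 16 pairs of rats with the same number in different groups had a median correlation of 0.0003 in their deviations from the group means (6 over 0.1), and 208 pairs with different numbers had -0.0064 (57 over 0.1). The numbers were therefore not taken to pair the rats.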
